A study of Mus musculus with 6 samples.

Results

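The T helper 2 (Th2) cytokine locus of mouse chromosome 11, which holds Il4, Il13, Rad50, Il5 and Irf1, and the Gata3 region of chromosome 2 were examined for T-bet binding in induced regulatory T cells (iTreg cells). Their members were chosen by position, as every peak that overlapped chromosome 11 from 53.39 to 53.64 Mb or chromosome 2 from 9.4 to 9.9 Mb of the mm9 build in 3 lists of chromatin immunoprecipitation and sequencing (ChIP-seq) peaks. Of the 8925 peaks in the lists, 8 met the rule: 3 in the Th2 cytokine window and 5 in the Gata3 window. All 8 came from wild-type (WT) replicate 1. The T-bet knockout (KO) list and the WT replicate 2 list held none.

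The lists came from 1 ChIP library of T-bet KO iTreg cells and 2 of WT iTreg cells, all Balb/c, and the labels do not say how the KO allele was made or how many mice were pooled. Naive CD4 T cells of mice aged 4 to 10 weeks were activated with anti-CD3 and anti-CD28 at 10 µg/ml each and cultured for 7 days with 33 ng/ml TGF-β1 and 20 ng/ml IL-2 in both genotypes. The same rabbit serum against T-bet was used throughout, so the KO library measures the background of the antibody. Peak lists carry no expression values, so neither the iTreg identity nor the loss of T-bet was checked against marker genes.

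T-bet is the T-box transcription factor that directs T helper 1 differentiation, and GATA3 is the zinc-finger factor that directs the Th2 fate. Each is known to restrain the programme of the other, and GATA3 is also used by regulatory T cells. Il4, Il5 and Il13 encode the signature Th2 cytokines: IL-4 drives Th2 differentiation and class switching to IgE, IL-5 sustains eosinophils and IL-13 acts on epithelium. Rad50 encodes a DNA-repair protein and, in the mouse, its gene body holds the locus control region of the neighbouring cytokine genes. Irf1 encodes an interferon-induced transcription factor that favours T helper 1 responses.

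The order of the protein-coding genes, by the RefSeq annotation of GRCm38.p6, runs Septin8, Kif3a, Il4, Il13, Rad50, Il5, Irf1, Slc22a5 on chromosome 11 and Celf2, Gata3, Taf3 on chromosome 2. That build differs from the mm9 build of the peaks, so gene positions are not set beside peak positions, and no peak is assigned to a gene, exon, intron or promoter here. The promoters of these genes were searched for the letters of T-box, GATA, RUNX and ETS motifs. Promoters are a small part of the windows, and the rest of each window was not searched. RefSeq promoter sequences, from 250 bases before to 50 bases after a start, matched 5 of the 6 genes with 7 entries; the sixth gene is Rad50. Neither the T-box motif TCACACCT nor its core GGTGTGA, which the longer motif contains on the other strand, was found in these 7 promoters on either strand. Those letters occur in 1.28% and 3.98% of all 32851 promoters of the table, so their absence from 7 promoters is near that background and says little. The GATA motif AGATAA (11.2% of promoters) and the RUNX motif TGTGGT (16.8%) each matched 1 of the 7, in both cases Il13, and the ETS core GGAAGT (23.8%) matched both Irf1 entries. In the Il13 promoter, the RUNX match begins 91 bases and the GATA match 81 bases before the start, and they do not overlap. It is printed because it alone held matches to 2 of the motifs, which are in capitals (RefSeq, GRCm38.p6, chr11:53634653-53634952, minus strand, 5′ to 3′).
Il13: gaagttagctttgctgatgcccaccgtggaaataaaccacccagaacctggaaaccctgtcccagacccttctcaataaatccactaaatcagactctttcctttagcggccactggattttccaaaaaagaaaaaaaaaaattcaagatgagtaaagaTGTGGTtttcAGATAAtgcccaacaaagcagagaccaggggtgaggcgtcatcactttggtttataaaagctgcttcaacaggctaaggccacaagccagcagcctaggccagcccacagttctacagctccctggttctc
These matches describe letters only, and no peak is placed on them. How many of all promoters hold matches to several of these motifs was not counted, so the Il13 promoter is not shown to be unusual.

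In the Th2 cytokine window, the KO list held 0 peaks, against 3 in WT replicate 1 and 0 in WT replicate 2. The WT replicate 1 peaks were weak to moderate for their list, in which scores ran from 70.13 to 3100.00 with a median of 108. The score is the authors' value from the peak caller; its scale is not stated, and it is used here only to order peaks within a list. The first peak, chr11:53468826-53468979, was 154 bp wide and scored 77.9, and 9.77% of the list scored lower. The second, chr11:53520686-53520853, was 168 bp wide and scored 101, above 44.5% of the list. The third, chr11:53577410-53577630, was 221 bp wide and scored 129, above 62.6% of the list. Only the third lay above the list's median score, and none was in its highest score decile. The peaks were spaced 51.7 kb and 56.6 kb apart, over a span of 109 kb, and together covered 543 bp of the 250 kb window.

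In the Gata3 window, the KO list again held 0 peaks, against 5 in WT replicate 1 and 0 in WT replicate 2. These peaks included stronger ones than those of the cytokine window: their median score was 253, against 101, and 4 of the 5 lay above the list's median. The strongest, chr2:9788776-9789069, scored 471 over 294 bp and ranked 202 of 7996. Its neighbour, chr2:9789168-9789440, lay 98 bp away, scored 272 over 273 bp and ranked 752. Both were in the highest score decile of the list, and joined they made a single region of 665 bp. Gaps as short as 100 bp were uncommon in WT replicate 1, where 520 peaks, or 6.50%, had a neighbour that close.

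The other Gata3 peaks lay at smaller coordinates. The peak chr2:9499498-9499927 was the widest of the 8 at 430 bp, wider than 96.4% of the list, and scored 253, above 89.1% of it. The peak chr2:9599601-9599675 scored 184, above 79.5% of the list, but was only 75 bp wide. The peak chr2:9639670-9639833 was 164 bp wide and scored 87.8, above 28.9% of the list. From left to right, the gaps between the Gata3 peaks were 99.7 kb, 40.0 kb, 149 kb and 98 bp, so the peaks were scattered over 290 kb except for the pair. The nearest WT replicate 1 peak outside the windows, chr2:9914311-9914504, lay 14.3 kb past the right edge of the Gata3 window, scored 193.08 and also had no counterpart in the other lists. No further peak of any list lay within 50 kb of either window.

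**Figure D1:**
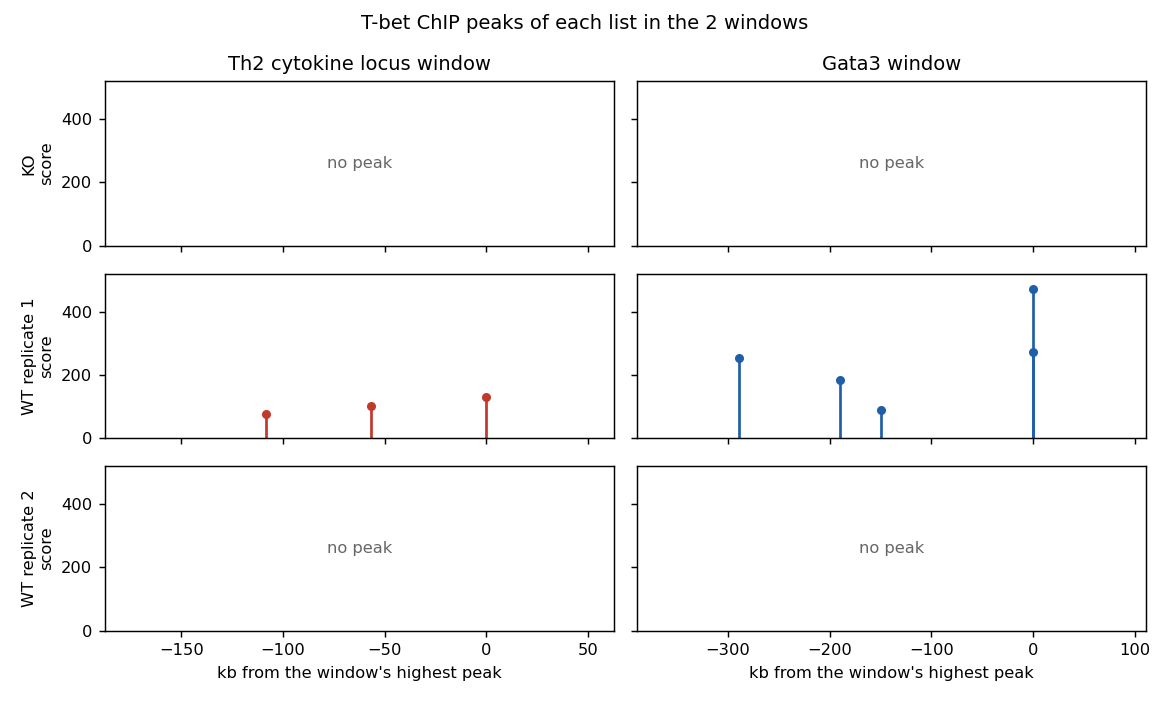
Peaks of the KO, WT replicate 1 and WT replicate 2 lists (rows) in the Th2 cytokine and Gata3 windows (columns); each stem is a peak, its height the deposited score, and the horizontal axis gives the distance in kb from the highest peak of the window. Only the WT replicate 1 row holds peaks, 3 with scores of 77.9 to 129 and 5 with scores of 87.8 to 471, of which the rightmost stem is the pair 98 bp apart.

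None of the 8 peaks met a KO peak, and 0.550% of all WT replicate 1 peaks did. A result of 0 of 8 is therefore near that background and says little about T-bet dependence at these loci. The nearest KO peak to the Th2 cytokine peaks was 26.2 to 26.4 Mb away, at chr11:79826846-79827113. For the Gata3 peaks it was 6.82 to 7.10 Mb away, at chr2:16604633-16604831. With 78 peaks in all, the KO list averaged 0.0296 peaks per Mb over the 19 autosomes and X, which comes to 0.00739 peaks for a stretch as long as the cytokine window and 0.0148 for one as long as the Gata3 window.

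None of the 8 met a WT replicate 2 peak either, and 9.50% of all WT replicate 1 peaks did. The nearest replicate 2 peaks were chr11:54836511-54836983, with a replicate 2 score of 130, 1.26 to 1.37 Mb from the cytokine peaks, and chr2:11564100-11564729, with a score of 131, 1.77 to 2.06 Mb from the Gata3 peaks. The 8 peaks are thus seen in 1 of the 2 WT libraries, and no spread between replicates can be given for them. The deposited list names of KO and WT replicate 2 start with the same number and that of WT replicate 1 with another, whose meaning the sources do not give. If it marks a batch, WT replicate 1 stands alone in its batch, and that batch cannot be told apart from the presence of these peaks.

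How often a WT replicate 1 peak recurred depended on its score, and the members spread over the range. The cytokine peaks were in score deciles 1, 5 and 7, counted from the lowest, in which 1.88%, 3.88% and 5.12% of peaks met a replicate 2 peak. Summed, those shares come to 0.109 peaks for the 3 members, close to the 0 observed. The Gata3 pair was in decile 10, in which 47.1% of peaks recurred (95% Clopper-Pearson interval 43.6 to 50.6%). The widest peak was in decile 9, with 16.6% (14.1 to 19.4%), the 75 bp peak in decile 8, with 8.26%, and the remaining one in decile 3, with 2.63%. For the 5 Gata3 peaks the shares sum to 1.22, against 0 observed, and the adjacent pair supplies most of that sum although its peaks are not independent of each other. The decile 10 share is an average over scores from 262.75 to 3100.00, and the pair scored 471 and 272, the latter near the lower end. Peak width does not enter the sum either, so 1.22 is a rough guide only, and a shortfall was not tested. Of the 44 peaks of decile 10 with a neighbour within 100 bp, 17, or 38.6% (24.4 to 54.5%), met a replicate 2 peak. These intervals cover counting error over peaks only, and peaks are not replicates, so no test was made.

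**Figure D2:**
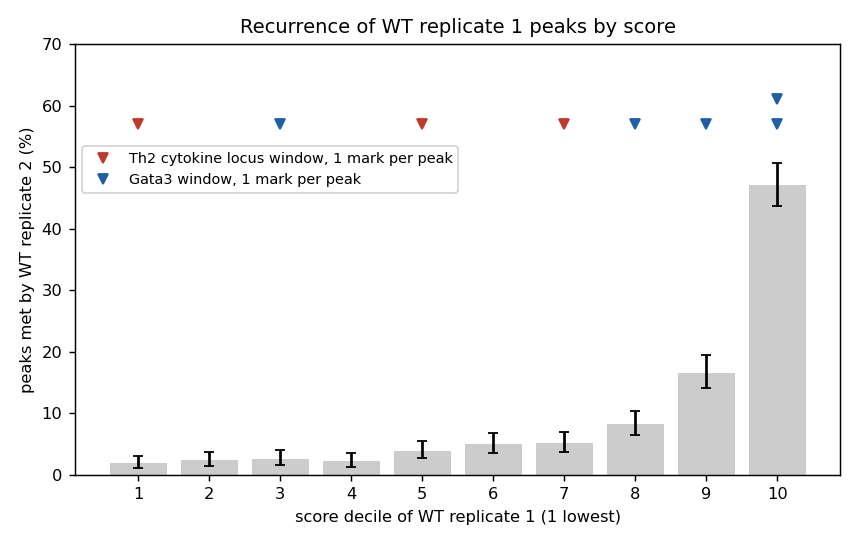
Share of WT replicate 1 peaks met by a WT replicate 2 peak (%, bars, with 95% Clopper-Pearson intervals) by decile of the WT replicate 1 score; triangles mark the deciles of the 3 Th2 cytokine and 5 Gata3 peaks, and their height has no meaning. The share is 1.88% in the lowest decile and 47.1% in the highest, where 2 Gata3 peaks lie.

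Width set the 75 bp Gata3 peak apart from the other members. It was narrower than the shortest library fragments of 150 bp given in the labels, and only 0.663% of the list was narrower. Peaks under 100 bp made up 5.24% of WT replicate 1 and those of 100 to under 150 bp a further 23.3%, so widths below 150 bp were not rare. Of the 419 under 100 bp, 8, or 1.91% (0.828 to 3.73%), met a replicate 2 peak. Among the 25% of peaks with the highest scores, to which this one belongs, 7.02% (3.08 to 13.4%) of those under 100 bp recurred, compared with 39.3% (36.4 to 42.4%) of those of 300 bp or more. Their median scores were 202 under 100 bp and 296 at 300 bp or more, so width and score were not separated. The 430 bp Gata3 peak belongs to that wider class. The other 6 members were 154 to 294 bp wide, within the class of 150 to under 300 bp, in which 15.4% (12.9 to 18.1%) of these high-scoring peaks and 6.18% (5.50 to 6.91%) of all peaks recurred.

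**Figure D3:**
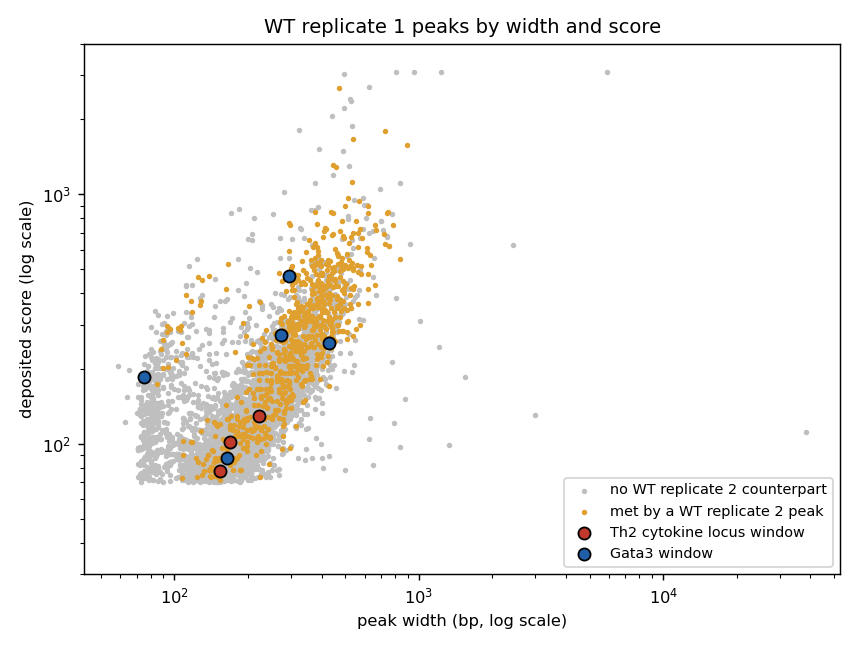
Width (bp, log scale) and deposited score (log scale) of each of the 7996 WT replicate 1 peaks, in grey where no WT replicate 2 peak met them and in orange where one did; large red points are the Th2 cytokine peaks and large blue points the Gata3 peaks. The 75 bp Gata3 peak lies near the narrow end of the list, and the other 7 lie among wider peaks.

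Both windows held more WT replicate 1 peaks per Mb than the genome as a whole. The cytokine window had 12.0 peaks per Mb (exact 95% Poisson interval 2.47 to 35.1), compared with 5.10 on the whole of chromosome 11 and 3.03 over the autosomes and X. Both of these lie within the interval. The Gata3 window had 10.0 peaks per Mb (3.25 to 23.3). The 3.62 of chromosome 2 lies within that interval, and the 3.03 of the autosomes and X just below it. Such intervals treat peaks as independent. Of all WT replicate 1 peaks, 66.6% had a neighbour within 50 kb, so the intervals may be too narrow. The Gata3 count also took the pair 98 bp apart as separate peaks. Joining peaks within 500 bp left 4, for which no interval was made. An excess over the genome was therefore not established for the Gata3 window. Counts as high as those of these windows were not rare. When the genome was laid out in consecutive 250 kb windows, 1020 of 10547, or 9.67%, held at least 3 WT replicate 1 peaks, and of 5269 windows of 500 kb, 574, or 10.9%, held at least 5. The most in any 1 window was 27 at 250 kb and 31 at 500 kb.

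Most windows with as many WT replicate 1 peaks held no WT replicate 2 peak. Among the 361 windows of 250 kb with exactly 3 WT replicate 1 peaks, 68, or 18.8%, held one. Of the 111 of those in which no peak scored above 129, the highest score of the cytokine window, 6, or 5.41%, did. Among the 164 windows of 500 kb with exactly 5 WT replicate 1 peaks, 52, or 31.7%, held a replicate 2 peak. Of the 154 of those in which no peak scored above 471, the highest score of the Gata3 window, 43, or 27.9%, did. By count, with the highest score as a cap only, both windows lacked a replicate 2 peak as most such windows did. For the Gata3 window the cap kept 154 of the 164 windows, so it did not match them on highest score. Windows of any count were also taken by score alone. Of the 1799 windows of 250 kb with a peak scoring at least 129, 495, or 27.5%, held a replicate 2 peak. Of the 170 windows of 500 kb with a peak scoring at least 471, 122, or 71.8%, did. Among windows with a highest score of at least 471, then, the Gata3 window lacked a replicate 2 peak where most held one. Its own highest score sits at that floor, and the other windows score as high or higher and hold any number of peaks. The floor therefore did not match them on highest score either, and the share for windows like the Gata3 window was not measured.

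**Figure D4:**
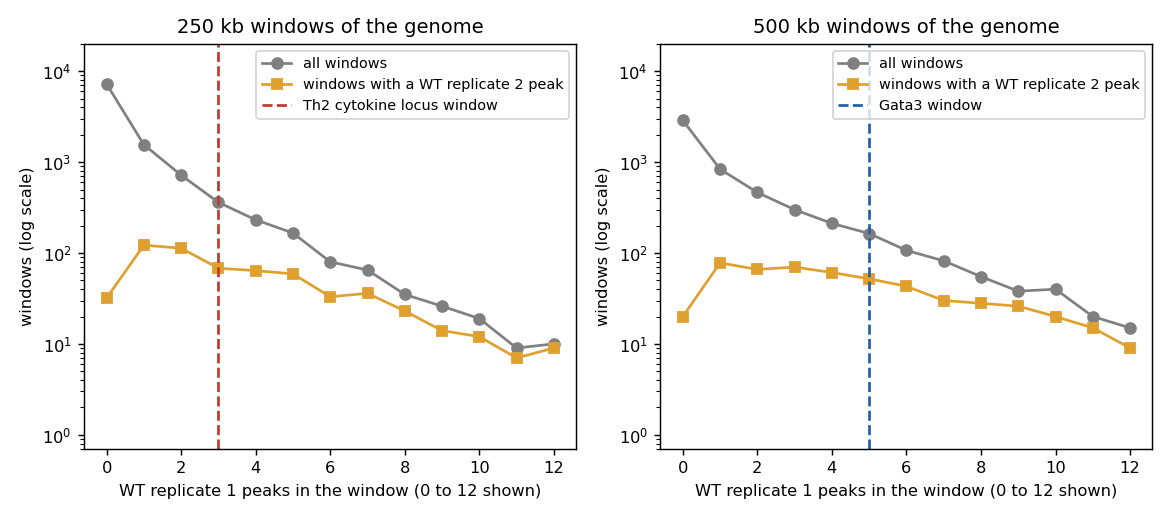
Number of consecutive 250 kb (left) and 500 kb (right) windows of the autosomes and X (vertical, log scale) by how many WT replicate 1 peaks they held (horizontal); grey circles are all windows, orange squares those that also held a WT replicate 2 peak, and the dashed lines mark the counts of 3 in the Th2 cytokine window and 5 in the Gata3 window. At 3 peaks there are 361 windows, 68 of them with a replicate 2 peak, and at 5 peaks 164 and 52.

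The empty lists do not show that the loci are unbound. With a fixed limit of 3 peaks for a count of 0, up to 12.0 per Mb is allowed in the cytokine window and 6.00 per Mb in the Gata3 window. The exact 95% Poisson intervals used above are 2-sided, a different definition, and end at 14.8 and 7.38 per Mb. These limits cover counting error over peaks only and lie far above the averages of 0.0296 peaks per Mb in the KO list and 0.322 in WT replicate 2. In the Gata3 window the 10.0 peaks per Mb of WT replicate 1 exceed the limit for the KO list, but they exceed that for WT replicate 2 equally. The interval of WT replicate 1 itself starts at 3.25 per Mb, below these limits. With the depth of each library unknown and the WT lists differing in this way, no difference between genotypes was established at either locus.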

How the data were processed

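Peak lists of 3 T-bet ChIP libraries were used, 1 KO and 2 WT, grouped by their titles; the 3 input samples were not used here. Per the submitters' processing notes, CASAVA, Bowtie2, MACS 1.4 and mm9 were used; settings, read filters and controls: not given in the sources used here. One library underlies each list. The deposited score is the authors' peak caller value. Read counts and depth are unknown, so peak heights and list lengths cannot be compared between libraries, and the list lengths limit what can be found in short windows.

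Starts were read as BED and are given counted from 1. At least 1 bp in common counted as overlap. The 10 score deciles and the 250 kb and 500 kb windows used the whole WT replicate 1 list, with mm9 chromosome lengths from GenomeInfoDb 1.38.1 (R 4.3.3); a peak was put in a window by its midpoint. No test was made, since a single KO list and no depth allow none. WT replicates may be technical, as the labels name no separate mice or cultures. Calculations ran in Python 3.11.15 with scipy 1.17.1 and numpy 2.4.6, plots in matplotlib 3.10.9, and the overlap functions were tested on simulated peaks. Every peak in the windows is named. The members, windows and lists were chosen with earlier results of these data known. The planned placement of peaks by gene feature, the peak sequences and their motifs, and the count of peaks near other Th2 genes needed an mm9 annotation or genome and were not analysed here; the promoter motif search was added after seeing the peaks.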

Additional observations from a re-analysis of the deposited data

How the results depend on the processing

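Of 62 alternatives to 19 results, 60 left the value within 1.5 times. The 2 that did not were the numbers of WT sites when WT replicate 2 was left out. Most of the 60 set a value of 0 beside 0, so this tally says little about stability. Those were the values of the KO and WT replicate 2 lists, the shared sites and the KO counterparts. Sites held by both WT lists numbered 0 in each window. With 1 WT list left out, a different quantity was counted, the peaks of the remaining WT list with no KO counterpart. It ran from 0 to 3 in the Th2 cytokine window and from 0 to 5 in the Gata3 window, since replicate 1 alone supplies every peak. The 0 counts of shared sites and of KO counterparts did not change with a reciprocal overlap of 50%, midpoints within 250 bp, peaks within 1 kb, KO peaks extended by 1 kb or scores of at least 100, each where it applied. None of these settings could have changed them. The nearest replicate 2 peak was at least 1.26 Mb away and the nearest KO peak at least 6.82 Mb away. With scores of at least 100, 2 cytokine and 4 Gata3 peaks were left; joining peaks within 500 bp left 3 and 4, and widening the windows by 50 kb gave 3 and 6. Shifting the 250 kb and 500 kb windows by 50% of their length, chosen after seeing the data, gave 9.70% and 10.5% with as many peaks. No paired analysis was possible because the KO group has 1 library and no input library was analysed here. Depth is unknown and limits every absence named.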
